A study of Mus musculus with 6 samples.

Results

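The genes described here make sterols and fatty acids and regulate that synthesis. They were chosen as 30 gene symbols: 16 enzymes of the sterol branch, 10 enzymes of the fatty acid branch and 4 regulators. All 50 probe rows that carry one of these symbols were taken, of 30146 probe rows for 21400 symbols in the count table. Counts came from TempO-Seq, a targeted assay in which paired detector oligonucleotides are ligated side by side on an RNA and sequenced, so each row reports the short stretch of RNA under 1 probe. Islets, the endocrine clusters of the pancreas, were taken from 3 wild-type male C57Bl/6 mice and split between 2 arms for each animal. They were kept for 48 h in RPMI medium with 10 uM cisplatin, a platinum compound that crosslinks DNA, or with 0.9% saline as vehicle, which gave 3 libraries per arm. The comparison asks how cisplatin alters gene expression in isolated islets. Libraries that carry the same number in the 2 arms came from the same mouse. The age of the mice is not given in the sources used here.

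Cholesterol is built from acetyl-CoA. The mevalonate steps make isoprenoid units, squalene synthase and squalene epoxidase commit these to sterols, and the enzymes after lanosterol trim the ring system to cholesterol. Fatty acid synthesis starts with acetyl-CoA carboxylase and fatty acid synthase, after which elongases and desaturases lengthen and desaturate the chain. Both branches are controlled by the SREBP transcription factors, which the escort protein Scap carries from the endoplasmic reticulum for activation and which Insig proteins hold back when sterol is plentiful. In beta cells, the insulin-producing cells of the islet, lipid synthesis draws on the citrate exported from mitochondria during glucose metabolism.

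The proximal promoters are shown first, since the sterol genes for which one was found have a sequence feature in common that the choice of members did not use. RefSeq promoter windows (build GRCm38.p6, 250 bases before to 50 bases after a start) were found for 24 of the 30 members, 30 windows in all. The sterol genes Sqle, Fdft1 and Fdps and the fatty acid genes Scd1, Scd2 and Fads1 had no window. Both strands were searched for 4 motifs, and overlapping matches were each counted. These were TCACNCCAC, a sterol response element bound by SREBP proteins, CACGTG, an E-box that SREBP proteins also bind, CCAAT, bound by NF-Y, and GGGCGG, the GC box bound by Sp factors. A CCAAT box lay in at least 1 window of all 13 sterol genes with a window, against 3 of 7 fatty acid genes, 3 of 4 regulators and 41.1% of the 27025 genes in the same RefSeq table. A GC box was found for 12 of 13 sterol genes, 3 of 7 fatty acid genes and all 4 regulators, against 38.2% of all genes. Of the members, Hmgcs1 alone held the sterol response element as spelled here, against 1.4% of all genes. E-boxes were found for 3 sterol genes, 1 fatty acid gene and 2 regulators, against 8.09% of all genes. Matches are a description of letters in these windows, and binding was not measured. The 250 bases before the start are printed in the direction of transcription for 4 members, with motif matches in capitals. Hmgcs1 has the sterol response element, Pmvk had a probe row higher with cisplatin, and Elovl5 and Elovl6 each had one lower.
Hmgcs1, chr13:119690101-119690350, plus strand: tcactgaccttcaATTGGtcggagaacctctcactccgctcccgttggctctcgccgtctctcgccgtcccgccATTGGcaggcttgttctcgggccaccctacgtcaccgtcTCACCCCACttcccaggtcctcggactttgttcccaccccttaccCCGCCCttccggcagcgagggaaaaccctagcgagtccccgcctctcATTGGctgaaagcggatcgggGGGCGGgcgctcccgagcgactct
Pmvk, chr3:89454291-89454540, plus strand: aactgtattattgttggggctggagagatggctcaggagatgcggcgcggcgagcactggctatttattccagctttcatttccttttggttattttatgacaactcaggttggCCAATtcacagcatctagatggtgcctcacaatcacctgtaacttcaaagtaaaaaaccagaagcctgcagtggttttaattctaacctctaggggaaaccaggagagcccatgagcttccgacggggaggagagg
Elovl5, chr9:77917115-77917364, plus strand: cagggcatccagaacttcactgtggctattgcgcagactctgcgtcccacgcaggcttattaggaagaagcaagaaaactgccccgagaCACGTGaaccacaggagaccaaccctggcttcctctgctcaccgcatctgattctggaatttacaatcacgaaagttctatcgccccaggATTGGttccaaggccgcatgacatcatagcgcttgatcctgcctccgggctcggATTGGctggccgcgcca
Elovl6, chr3:129532136-129532385, plus strand: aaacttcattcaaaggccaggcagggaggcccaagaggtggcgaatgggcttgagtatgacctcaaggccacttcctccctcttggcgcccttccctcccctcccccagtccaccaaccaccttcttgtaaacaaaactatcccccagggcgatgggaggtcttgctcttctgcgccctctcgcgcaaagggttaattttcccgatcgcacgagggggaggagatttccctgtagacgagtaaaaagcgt

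In the Hmgcs1 stretch the sterol response element starts 137 bases before the start site, between CCAAT boxes read on the other strand at 176 and 45 bases before it. The Pmvk stretch has a single CCAAT box, and another RefSeq window of Pmvk holds none of the 4 motifs. Elovl5 has an E-box and a pair of CCAAT boxes, and the Elovl6 stretch has no match to any of the 4.

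Total counts were 1116916 to 1366829 in cisplatin libraries and 1470227 to 2272276 in vehicle libraries (exact permutation p = 0.1, two-sided, the smallest that 3 against 3 libraries allow). Mitochondrially encoded rows took 28.6% of the counts of cisplatin library 3 and at most 3.11% of any other library. The 8 beta cell markers were abundant in both arms, at a summed level of 66675 to 147802 CPM in cisplatin libraries and 93088 to 165371 CPM in vehicle libraries. That sum is mostly Ins1, Ins2 and Iapp. Mafa (-2.90), Nkx6-1 (-1.93) and Ucn3 (-2.73) were called lower, and 1 Ins2 row higher (1.55). CPM here is the count scaled to library size after TMM factors, a correction for library composition. The 6 alpha cell markers summed to 8030 to 10974 CPM with cisplatin and 17383 to 50855 CPM with vehicle. The 7 macrophage markers summed to 12.7 to 72.9 CPM with cisplatin and 122 to 255 with vehicle, with 5 of 7 tested rows lower. The summed level was 102 to 137 against 75.8 to 113 CPM for 6 endothelial markers and 36.4 to 86.9 against 55.6 to 232 for 6 stromal markers. Of the endothelial markers, Kdr (-3.35) and Eng (-2.54) were called lower and 2 Esam rows higher (1.19 and 2.01). Of 6 adipocyte markers, whose cells make much fat, no row was abundant enough to be tested, and Adipoq, Plin1, Fabp4 and Lep had 0 counts in all cisplatin libraries, while Cfd had 17 cisplatin and 0 vehicle counts and Cidec 2 and 0. The 6 markers together had 19 cisplatin and 17 vehicle counts. The part of these cell types in the results below was not tested. In whole islets, fewer cells of a type and less RNA per cell cannot be told apart.

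Most member rows had low counts in these libraries. A row was tested when it passed edgeR's filter on low counts (minimum count of 10), which kept 24 member rows of 18 genes. The 26 rows that were not tested had between 0 and 60 counts over all 6 libraries, and 12 genes had no tested row. Changes were tested with edgeR's quasi-likelihood test, and a row was called at a Benjamini-Hochberg adjusted p under 0.05 over all 9381 tested rows. Of those rows 25% were called, 11.1% higher with cisplatin and 13.9% lower. Among the members 5 of 24 tested rows (20.8%) were called, a share close to that background. The sterol branch had 2 of 10 tested rows higher and none lower, at Pmvk and Sqle. The fatty acid branch had 3 of 10 lower and none higher, at Acaca, Elovl5 and Elovl6. None of the 4 tested regulator rows was called. At an unadjusted edgeR p under 0.05 the sterol branch had 1 row lower, Fdps, the fatty acid branch had 0 higher, and the regulators had 1 lower and 1 higher, Srebf2 and Scap. DESeq2 and limma-voom also gave 0 sterol rows lower and 0 fatty acid rows higher. Fatty acid rows lower numbered 3 with DESeq2 and 1 with limma-voom, and DESeq2 called 1 regulator, Srebf2, lower where limma-voom called 0. With the mouse as a block the sterol branch had 1 row higher and the fatty acid branch 1 row lower, Pmvk and Elovl5.

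**Figure D1:**
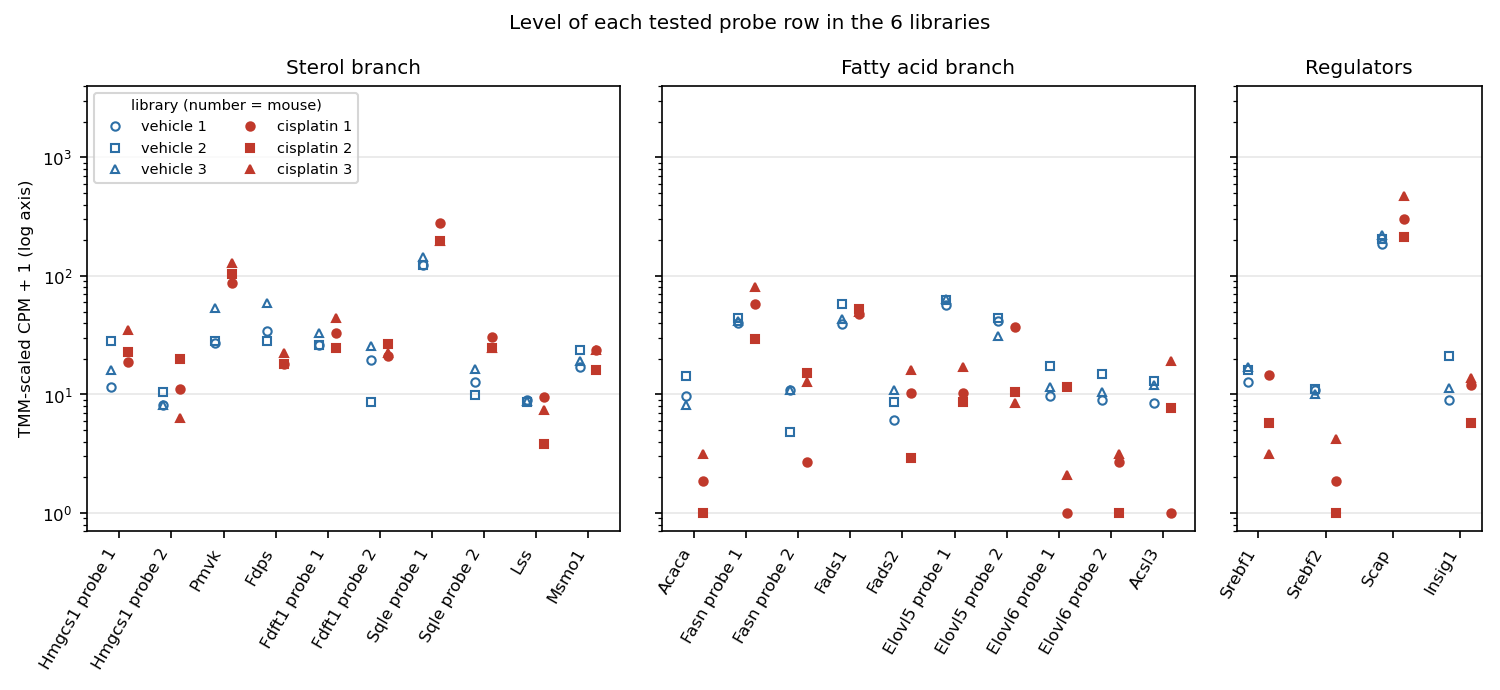
TMM-scaled CPM plus 1 (log axis) of the 24 tested probe rows in each library, with open symbols for vehicle, filled symbols for cisplatin and the symbol's shape for the mouse. Pmvk and both Sqle rows lie higher in every cisplatin library, while Fdps, Acaca, Elovl5 probe 1, Elovl6 probe 2 and Srebf2 lie below every vehicle library.

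The mevalonate arm had both the clearest rise and the lowest value of the sterol branch. Pmvk codes for phosphomevalonate kinase, which phosphorylates mevalonate phosphate on the way to isoprenoid units. Its row stood at 86.3, 103 and 128 CPM in cisplatin libraries 1, 2 and 3 and at 26.1, 27.1 and 52.7 CPM in the matching vehicle libraries. All cisplatin libraries were above all vehicle libraries. Pmvk rose 2.97-fold, from 35.3 ± 15.1 to 106 ± 20.8 CPM (SD, n = 3), a log2 fold change of 1.57 ± 0.37 (SE; edgeR adjusted p = 0.0078). Omitting vehicle library 1 (adjusted p = 0.0564) or both libraries of mouse 2 (adjusted p = 0.0684) ended the call, as did scaling by library totals alone (1.08, adjusted p = 0.0582).

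The main row of Fdps, which makes farnesyl diphosphate for sterols and for protein prenylation, differed in sign from its neighbours. It was at 16.9, 17.1 and 21.4 CPM with cisplatin and at 33.6, 27.1 and 58.2 CPM with vehicle. The groups did not overlap, as for 24.3% of all tested rows in that direction. The change of -1.11 ± 0.45 was not called (edgeR adjusted p = 0.0848), but passed the threshold when libraries were scaled by their totals alone (-1.59, adjusted p = 0.0228). A second Fdps row, not tested, had 6 cisplatin counts and 10 vehicle counts. Per effective library size that is a ratio of 1.26 (exact 95% interval 0.377 to 3.83). Hmgcs1, the synthase that makes HMG-CoA, was at 17.8, 21.9 and 34.3 CPM with cisplatin and at 10.7, 27.1 and 15.0 CPM with vehicle, and the groups overlapped. Its 2 tested rows had similar values, 0.49 ± 0.53 and 0.55 ± 0.70, and neither was called (edgeR adjusted p = 0.539 and 0.616). Mvk, Mvd and Idi1, for mevalonate kinase, the decarboxylase and the isomerase, had no tested row. The main Idi1 row had 12 cisplatin counts and 17 vehicle counts, and the scarcest row 0 and 2. The remaining Idi1 row had 14 cisplatin counts and 3 vehicle counts. Per effective library size the last is a ratio of 9.81 (exact 95% interval 2.74 to 53.2), and 10 of the 14 lay in cisplatin library 1. Mvd had 0 counts with cisplatin and 3 with vehicle.

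At the squalene steps both rows of Sqle were higher in every cisplatin library. Sqle codes for squalene epoxidase, a flavoenzyme that is a control point of the pathway. Its most abundant row was at 281, 195 and 197 CPM with cisplatin and at 124, 122 and 143 CPM with vehicle. It rose 1.73-fold, a log2 fold change of 0.79 ± 0.27 (edgeR adjusted p = 0.0475). The less abundant row was at 29.6, 23.8 and 23.6 against 11.9, 8.84 and 15.3 CPM, also with no overlap, and its change of 1.08 ± 0.50 was not called (adjusted p = 0.130). Among all tested rows, 19.1% had all cisplatin libraries higher. The call of the abundant row was close to the threshold. A mouse block (adjusted p = 0.0658), no filter on low counts (adjusted p = 0.219) or scaling by library totals alone (0.37, adjusted p = 0.472) ended it. Omitting 1 library ended it for 5 of the 6 libraries (adjusted p = 0.0590 to 0.169), cisplatin library 3 being the exception.

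Fdft1, the squalene synthase that takes farnesyl diphosphate into sterols, was at 32.1, 23.8 and 42.9 CPM with cisplatin and at 25.3, 25.3 and 31.9 CPM with vehicle. Its rows had values of 0.26 ± 0.41 and 0.39 ± 0.53 and neither was called (edgeR adjusted p = 0.702 and 0.649). Lss, which closes squalene epoxide to lanosterol, had -0.39 ± 0.78 (adjusted p = 0.765).

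After lanosterol only Msmo1, a methyl sterol oxidase, had enough counts to be tested. It was at 22.8, 15.2 and 22.5 CPM with cisplatin and at 16.2, 22.7 and 18.1 CPM with vehicle, with overlapping groups and a change of 0.09 ± 0.48 (edgeR adjusted p = 0.917). Cyp51, Nsdhl, Hsd17b7, Ebp, Sc5d and Dhcr7 were not tested in any row. The most abundant Dhcr7 row, for the reductase that completes cholesterol, had 26 cisplatin counts and 17 vehicle counts, a ratio of 3.21 (1.68 to 6.31), with 17 of the 26 in cisplatin library 1. The other 3 Dhcr7 rows had 2 and 14, 2 and 3, and 0 and 3 counts. Ebp, the sterol isomerase, had 16 and 13 counts in its main row, a ratio of 2.59 (1.17 to 5.84), and 0 of the 16 in cisplatin library 1. A second Nsdhl row had 0 counts with cisplatin and 14 with vehicle, at least 2.22-fold lower when 3 counts are taken as the group's floor, while the main Nsdhl row had 26 and 34. These intervals and the floor cover counting error only. They leave out the spread between mice, and amplified reads are not independent molecules.

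In the fatty acid branch all 4 tested elongase rows had values below 0. Elovl5 extends polyunsaturated fatty acids. Its most abundant row was at 9.30, 7.61 and 16.1 CPM with cisplatin and at 55.7, 61.9 and 62.6 CPM with vehicle. The vehicle libraries lay close together and far above all cisplatin libraries. The row fell 5.48-fold, a log2 fold change of -2.45 ± 0.43 (edgeR adjusted p = 0.0012). It was the 1 member row called under all 19 alternatives, with values from -2.95 to -1.78. The other Elovl5 row told the libraries apart differently, at 36.4, 9.51 and 7.51 CPM with cisplatin and at 40.3, 43.6 and 30.3 CPM with vehicle. Cisplatin library 1 lay within the vehicle range there, and the change of -1.07 ± 0.55 was not called (adjusted p = 0.178). Without cisplatin library 1 that row was called at -2.05 (adjusted p = 0.00803).

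Elovl6 extends saturated and monounsaturated chains from palmitate. Its called row was at 1.69, 0 and 2.14 CPM with cisplatin and at 7.91, 13.9 and 9.45 CPM with vehicle. That was 4 counts against 66, a log2 fold change of -2.96 ± 1.01 (edgeR adjusted p = 0.0457). The more abundant row was at 0, 10.5 and 1.07 against 8.70, 16.4 and 10.6 CPM, with cisplatin library 2 inside the vehicle range, and was not called (-1.61 ± 1.02, adjusted p = 0.274). Without that library it was called at -4.43 (adjusted p = 0.0322). A further Elovl6 row, not tested, had 6 and 38 counts, a ratio of 0.332 (exact 95% interval 0.115 to 0.791), and the fourth had 6 and 4. The called row lost its call without each of the 6 libraries in turn (adjusted p = 0.0502 to 0.192), with the mouse as a block (adjusted p = 0.115), with limma-voom (adjusted p = 0.0809), with no filter on low counts (adjusted p = 0.0954) and without mitochondrial rows (adjusted p = 0.0521). With counts added over its probes, Elovl6 was not called.

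Of the chain-building enzymes, Acaca was lower and Fasn was not called. Acaca codes for the acetyl-CoA carboxylase that makes malonyl-CoA, the committed step of fatty acid synthesis. Its main row had 1, 0 and 2 counts with cisplatin and 22, 21 and 18 with vehicle, which is 0.103 times the vehicle level (0.0207 to 0.317). The fitted log2 fold change was -3.22 ± 1.07 (edgeR adjusted p = 0.0402). A second Acaca row, not tested, had 1 and 16 counts, a ratio of 0.131 (0.00313 to 0.845). A mouse block (adjusted p = 0.108), limma-voom (adjusted p = 0.0703) and no filter on low counts (adjusted p = 0.0888) ended the Acaca call, as did omitting any of 5 libraries (adjusted p = 0.0655 to 0.198). It held when cisplatin library 3 was omitted (adjusted p = 0.0480).

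Fasn codes for the synthase that assembles palmitate from malonyl-CoA. Its main row was at 56.7, 28.5 and 79.4 CPM with cisplatin and at 38.7, 42.9 and 40.5 CPM with vehicle. The cisplatin libraries spread on both sides of a narrow vehicle range, and neither Fasn row was called (0.43 ± 0.40 and 0.20 ± 0.83, edgeR adjusted p = 0.478 and 0.891).

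The tested desaturases had values near 0. Fads1, which introduces a double bond near the carboxyl end of polyunsaturated chains, was at 46.5, 51.3 and 48.3 CPM with cisplatin and at 38.3, 56.8 and 42.5 CPM with vehicle. Its change was 0.09 ± 0.35 (edgeR adjusted p = 0.886), the smallest SE of the branch. Fads2, a desaturase of the same pathway, had 0.21 ± 0.82 (adjusted p = 0.889), and its sign changed under 6 of 18 alternatives. The stearoyl-CoA desaturase genes had too few counts to test. Scd1 had 12 counts with cisplatin, all in library 1, and 6 with vehicle, and Scd2 had 26, with 23 in cisplatin library 2, and 28. Of the acyl-CoA synthetases, which activate fatty acids, Acsl3 was at 0, 6.65 and 18.2 CPM with cisplatin and at 7.51, 12.0 and 11.0 CPM with vehicle (-0.32 ± 0.94, adjusted p = 0.845). Acsl4 had 1 count in all 6 libraries together. Over all 26 rows that were not tested, the counting interval of the ratio lay above 1 for 6 and below 1 for 3. The 6 include Scd1 and Scd2, whose cisplatin counts lay all or mostly in 1 library. These intervals pool the libraries of an arm and leave out the spread between mice, so the tally is a description only. No share over the other untested rows of the count table is given beside it.

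**Figure D2:**
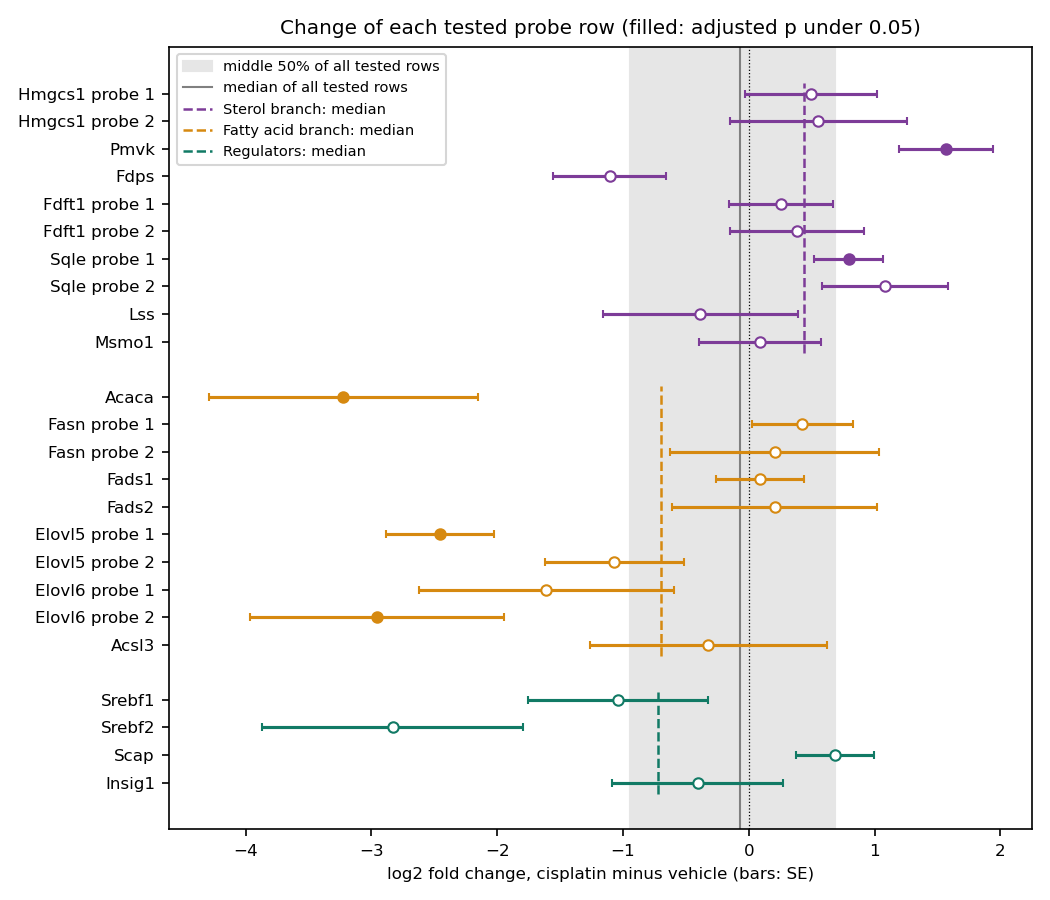
Log2 fold change (cisplatin minus vehicle) with SE of each tested row, grouped by branch, with filled symbols for rows at an adjusted p under 0.05 and dashed lines for branch medians. The grey band is the middle 50% of single tested rows, -0.94 to 0.68, and the dashed lines stand at 0.44 for the sterol branch and -0.69 for the fatty acid branch.

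The regulators were not called. Srebf2, the SREBP gene most tied to sterol synthesis, had 1, 0 and 3 counts with cisplatin and 25, 16 and 23 with vehicle, or 0.846, 0 and 3.22 against 9.88, 10.1 and 9.05 CPM. All cisplatin libraries were below all vehicle libraries, and the fitted change was -2.83 ± 1.04 (edgeR adjusted p = 0.0599). It was called lower with DESeq2 (adjusted p = 0.0482), with library totals alone (adjusted p = 0.0238), with probes summed per gene (adjusted p = 0.0496) and without cisplatin library 3 (-4.24, adjusted p = 0.0431). Srebf1, tied more to fatty acid synthesis, was at 13.5, 4.75 and 2.14 CPM with cisplatin and at 11.9, 15.2 and 16.1 CPM with vehicle (-1.04 ± 0.72, adjusted p = 0.321). Cisplatin library 1 lay inside the vehicle range of Srebf1.

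Scap was at 299, 210 and 474 CPM with cisplatin and at 185, 205 and 221 CPM with vehicle. It was higher in the cisplatin library of each mouse, but cisplatin library 2 fell inside the vehicle range and the change of 0.69 ± 0.31 was not called (edgeR adjusted p = 0.124). A scarce second Scap row had 13 and 6 counts, a ratio of 4.55 (1.61 to 14.6). Insig1, itself a sterol-regulated gene, was at 11.0, 4.75 and 12.9 CPM with cisplatin and at 7.91, 20.2 and 10.2 CPM with vehicle (-0.41 ± 0.68, adjusted p = 0.713). Its value was 0.06 without vehicle library 2.

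Set side by side, the sterol branch lay above the fatty acid branch. The median log2 fold change was 0.44 over the 10 tested sterol rows and -0.69 over the 10 tested fatty acid rows, beside -0.07 over all tested rows. With library totals alone the medians were -0.05, -1.17 and -0.54, so the sterol median changed sign, while it stayed above the median of all rows by 0.49 against 0.51 with TMM factors. The fatty acid median was also -1.17 without cisplatin library 3, -1.16 with a mouse block, -0.29 after thinning and -0.36 with probes summed per gene. Over the 17 alternatives for which medians were computed, the sterol median exceeded the fatty acid median by 0.64 to 1.76. Rows higher in the cisplatin library of all 3 mice numbered 3 of 10 in the sterol branch and 0 of 10 in the fatty acid branch. Rows lower in all 3 mice numbered 1 and 5. Some of these rows are probes of the same gene. The 3 higher rows belong to Pmvk and Sqle, and the 5 lower fatty acid rows belong to Acaca, Elovl5 and Elovl6. Of all tested rows 25% were higher and 31.6% lower in all 3 mice. The difference between the branches was not tested, since the members were chosen with earlier results of these data known.

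The same contrast appeared in sums over all rows of each branch, tested or not. Sterol rows summed to 573, 485 and 556 CPM in cisplatin libraries 1, 2 and 3 and to 308, 325 and 406 CPM in vehicle libraries. Fatty acid rows summed to 174, 158 and 210 CPM with cisplatin and to 230, 291 and 249 CPM with vehicle. The groups did not overlap in either branch, with sterol sums higher and fatty acid sums lower in the cisplatin library of every mouse. For the sterol branch this held with TMM factors and not with library totals alone. As a share of total counts, sterol rows took 0.0606%, 0.0378% and 0.0379% with cisplatin and 0.0389%, 0.0350% and 0.0454% with vehicle, so the groups overlapped and mouse 3 went the other way. Fatty acid rows took 0.0184%, 0.0123% and 0.0143% against 0.0292%, 0.0314% and 0.0279%, again with no overlap. The ratio of the sterol sum to the fatty acid sum, which no library scaling can alter, was 3.29, 3.07 and 2.64 with cisplatin and 1.33, 1.12 and 1.63 with vehicle. It averaged 3.00 ± 0.33 against 1.36 ± 0.26 (SD, n = 3), or 2.21-fold higher with cisplatin. Regulator rows summed to 330, 222 and 495 CPM against 215, 253 and 257 CPM, with overlapping groups.

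**Figure D3:**
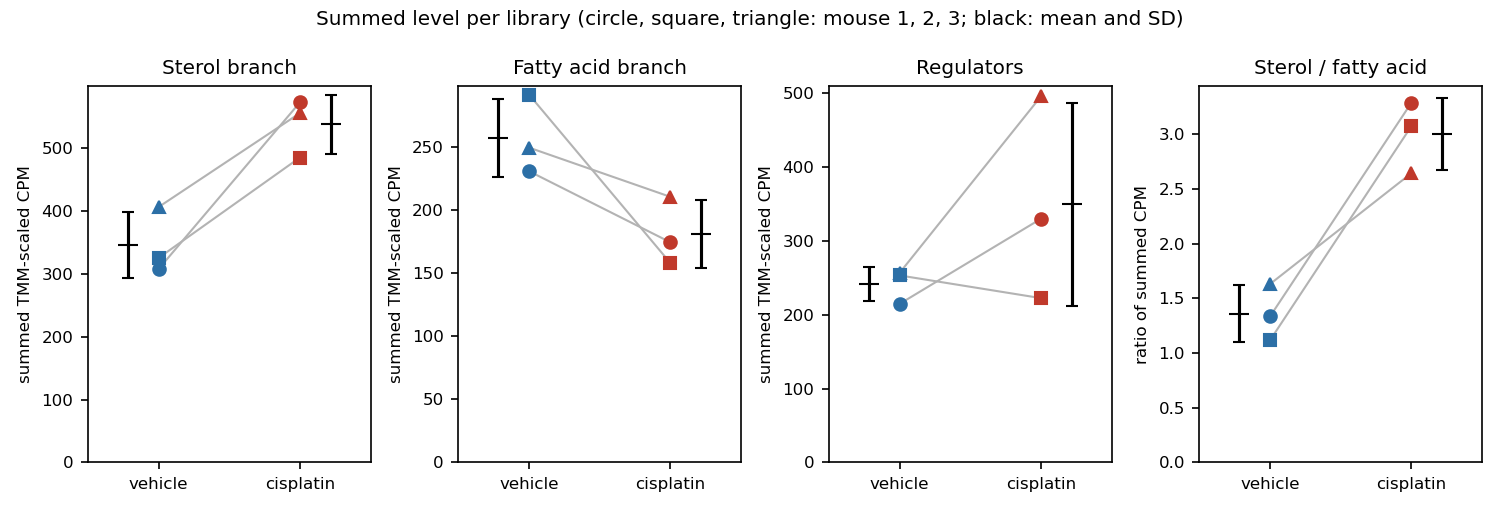
Summed TMM-scaled CPM of all rows of each branch, and the ratio of the sterol to the fatty acid sum, in each library (grey lines join libraries of a mouse; black marks give mean and SD, n = 3). The ratio is 2.64 to 3.29 in cisplatin libraries and 1.12 to 1.63 in vehicle libraries.

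The ratio was also computed with genes left out. Without the Sqle rows it was 1.59 ± 0.09 with cisplatin and 0.80 ± 0.17 with vehicle, and without the Elovl5 rows 3.63 ± 0.75 and 2.21 ± 0.43. Without Sqle, Pmvk and Elovl5 it was 1.37, 1.16 and 1.11 against 1.09, 0.901 and 1.25, with overlapping groups. Without the rows of all 5 genes that had a called row, it averaged 1.30 ± 0.12 and 1.45 ± 0.17. These omissions were chosen after the values had been seen. Leaving out genes that were called higher in one branch and lower in the other is bound to shrink the contrast, so the last value is a description only.

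Other genes of the pathway, from lists that are not members, were read from the same fit. In the sterol list 3 of 11 tested rows of 14 genes were higher, beside 11.1% of all tested rows. The higher rows were a less abundant row of Acat2, which makes acetoacetyl-CoA (2.33 ± 0.66, edgeR adjusted p = 0.0199), Ggps1, which makes geranylgeranyl diphosphate (2.09 ± 0.63, adjusted p = 0.0258), and Npc2, a lysosomal cholesterol carrier (1.05 ± 0.26, adjusted p = 0.0103). All 3 higher rows lost their call under scaling by library totals alone and when vehicle library 1 or 3 was omitted, Acat2 also when cisplatin library 2 was and Ggps1 also when cisplatin library 1 was.

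Among genes that regulate SREBP activity or respond to sterol or glucose, 3 of 13 tested rows were lower and 0 higher by edgeR, with 0 higher also at an unadjusted p under 0.05, by DESeq2 and by limma-voom. Over all tested rows edgeR called 13.9% lower and 11.1% higher. Abca1, the cholesterol exporter, went from 91.5 ± 31.7 to 10.9 ± 5.37 CPM (SD, n = 3; -3.03 ± 0.46, edgeR adjusted p = 5.0e-04). Mlxipl, which codes for the glucose-responsive factor ChREBP that acts with SREBP on lipogenic genes, went from 162 ± 82.0 to 31.0 ± 5.63 CPM (-2.39 ± 0.41, adjusted p = 0.00108). Mbtps1, a protease that cleaves SREBP precursors, had -1.36 ± 0.44 (adjusted p = 0.0359), and lost its call under a mouse block (adjusted p = 0.0707) and in 5 of the 6 fits with 1 library omitted (adjusted p = 0.0521 to 0.234), vehicle library 2 being the exception.

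In the fatty acid list 3 of 20 tested rows were lower and 0 higher by edgeR, and 17 of the 20 had a value below 0. Of all tested rows 13.9% were called lower and 52.5% had a value below 0. Dgat1, an enzyme of triglyceride assembly, was higher at an unadjusted p under 0.05 (1.64, adjusted p = 0.0636), and DESeq2 called 1 row higher where limma-voom called 0. Both rows of Acly were among the 3 lower rows. Acly codes for ATP citrate lyase, which cleaves citrate into the acetyl-CoA that feeds both branches. Its main row was at 401, 552 and 637 CPM with cisplatin and at 2285, 1971 and 2942 CPM with vehicle, with no overlap. It fell 4.53-fold, a log2 fold change of -2.18 ± 0.31 (edgeR adjusted p = 2.8e-04), and the second row gave -2.08 ± 0.42 (adjusted p = 0.00301). Acsl1, a long-chain acyl-CoA synthetase, fell by 2.62 ± 0.63 on the log2 scale (adjusted p = 0.00849) and lost its call when vehicle library 1 (adjusted p = 0.0561) or mouse 2 (adjusted p = 0.0840) was omitted and with limma-voom (adjusted p = 0.0549). Abca1, Mlxipl and both Acly rows were called under each alternative run for them.

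**Figure D4:**
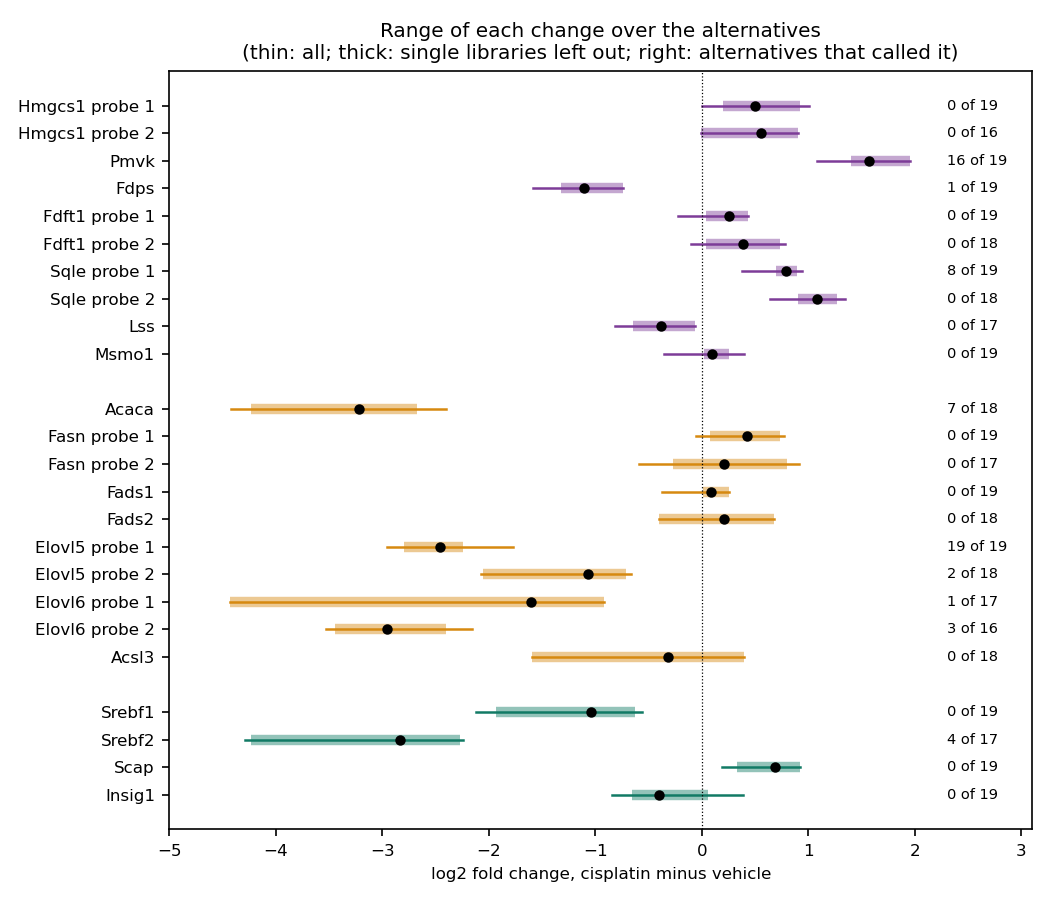
Range of the log2 fold change of each tested row over the alternatives (thin line) and over the 6 fits with a single library left out (thick line), with the reported value as a black point and the number of alternatives that called the row at the right. Elovl5 probe 1 was called in 19 of 19, Pmvk in 16 of 19, Sqle probe 1 in 8 of 19, Acaca in 7 of 18 and Elovl6 probe 2 in 3 of 16.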

How the data were processed

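Gene expression was measured by TempO-Seq with a mouse whole transcriptome probe panel in islets of 3 mice, with 3 libraries per arm. The authors deposited raw counts, whole numbers for each probe row in each library. Tools listed in the submitters' processing notes, without their roles, are DESeq2 1.44.0, fastp 0.23.2 and STAR 2.7.10b. How reads were assigned to probes is not given in the sources used here, so reads shared between similar genes cannot be judged.

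Rows were filtered (minimum count of 10), scaled with TMM factors and tested with edgeR 4.0.16 in R 4.3.3 (robust quasi-likelihood F-test, treatment as the only term), with Benjamini-Hochberg adjustment over 9381 rows and a two-sided threshold of 0.05. Log2 fold changes are cisplatin minus vehicle, with SE derived from the F statistic. TempO-Seq counts depend on each probe, so levels of single genes were not compared with one another. The branch sums and their ratio add different genes, so rows with high counts weigh most in them. The abundant Sqle row made up 224 of the mean 538 CPM of the sterol sum with cisplatin. Both libraries of a mouse carry the same animal identifier in the labels, which pairs them. Their deviations from the group means correlated at -0.12, 0.03 and 0.22. Alternatives were a mouse block, RLE factors, library totals, no filter or one at a mean CPM of 10, limma-voom (limma 3.58.1), DESeq2 1.42.0, counts added over a gene's probes, libraries thinned to the lowest total, and omission of mitochondrial rows, of single libraries and of single mice.

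The members and lists were chosen with earlier results of these data known. All members are accounted for. Called rows, and genes whose main row had a mean CPM of 20 or more, are given by library. From the context lists, called rows are named, at most 4 a list, and some results of the sterol list are not reported here. The most abundant row is a gene's main row.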

Additional observations from a re-analysis of the deposited data

How the results depend on the processing

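The number of rows called over all rows was 2344. It was 1085 to 2538 without single libraries, lowest without vehicle library 1, and 1350, 1511 and 1021 without mouse 1, 2 and 3. Sterol rows called higher numbered 2. They were 1 with no filter and with the replicate block (mouse), 0 with library totals alone, and 0 to 2 without single libraries or mice. Sterol rows called lower numbered 0, and 1 with library totals alone. Fatty acid rows called lower numbered 3. They were 1 with no filter, with limma-voom and with the replicate block, and 1 to 2 without single libraries or mice. A filter at a mean CPM of 10 also left 1, since it removed the called Acaca and Elovl6 rows before testing. The replicate block changed no other member call. Regulator rows called lower numbered 0. They were 1 with library totals alone, with DESeq2 and with probes summed per gene, and 0 to 1 without single libraries or mice. The sterol median of 0.44 was -0.052 with library totals alone, 0.29 with no filter, 0.67 after thinning, 0.28 with probes summed per gene, 0.35 to 0.70 without single libraries, and 0.53 and 0.69 without mouse 1 and mouse 3. Over all tested rows the split was 1040 higher and 1304 lower, and 459 and 2023 with library totals alone. Of 436 refits of single member rows, 390 kept their call or lack of one, 38 lost it and 8 gained one, and no called row changed sign. All 38 losses fell on the 5 called rows, since only these had a call to lose. The called Elovl5 row kept it in 19 of 19 refits and Pmvk in 16 of 19. The called Sqle row kept it in 8 of 19, Acaca in 7 of 18 and the called Elovl6 row in 3 of 16. With probes summed per gene, Elovl6 was not called. Low counts limit these genes: 26 of 50 rows had too few to test.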

Other observations

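Genes of fatty acid oxidation, the route that consumes what the fatty acid branch makes, were read from the same fit. Of 16 genes 9 had a tested row, of which 1 was lower and 0 higher by edgeR, with a median log2 fold change of 0.13. Over all tested rows 13.9% were called lower and 11.1% higher, and the median was -0.07. The lower gene was Hadh, a short-chain hydroxyacyl-CoA dehydrogenase whose loss is known to cause excess insulin secretion. It was at 104, 118 and 53.6 CPM in cisplatin libraries and at 340, 331 and 425 CPM in vehicle libraries, with no overlap. Hadh fell 3.97-fold, a log2 fold change of -1.99 ± 0.32 (edgeR adjusted p = 7.3e-04), and was called under each alternative run for it. The other 8 genes had values from -0.92 to 1.33. Acadvl, a very-long-chain acyl-CoA dehydrogenase, was higher at an unadjusted p under 0.05 (1.12 ± 0.39, edgeR adjusted p = 0.0524), and DESeq2 and limma-voom each called 1 row higher.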
